A study of Mus musculus with 2 samples.

Results

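The T cell receptor induced genes described here are the nuclear receptors Nr4a1, Nr4a2 and Nr4a3, the zinc finger factors Egr1, Egr2 and Egr3, and Irf4, Myc, Nfatc1 and Cd5. They are 10 of the 32285 genes counted, chosen by name with earlier results of these data known, and all 10 were found in both count matrices. The data are droplet single-cell RNA counts in 2 libraries of CD4 T cells from the visceral adipose tissue (VAT, fat of the abdominal cavity) of mice. The CD27_KO library came from CD27-/- mice, which lack a costimulatory receptor that binds CD70, and WT came from wild-type mice. Cells of the stromal vascular fraction, which remains once adipocytes are removed, were sorted as TCRb+ CD4+ after the mice had been pooled. The labels give a pool of 10 mice and C57BL/6 for both libraries, and neither age nor sex is given in the sources used here. With 1 pooled library per genotype, the variation between mice is unknown and no test across samples was possible, so each ratio compares these libraries. All intervals are exact, at 95%, and cover counting error only. They take each unique molecular identifier (UMI) as independent, and are too narrow where a gene's UMIs lie together in few cells. In the mm10 annotation, Nr4a1 lies at chr15:101254269-101274795, Nr4a2 at chr2:57106830-57124003, Nr4a3 at chr4:48045153-48086447, Egr1 at chr18:34859823-34864984, Egr2 at chr10:67535475-67542188 and Egr3 at chr14:70077203-70082614. Irf4 lies at chr13:30749226-30766976, Myc at chr15:61985391-61990374, Nfatc1 at chr18:80606205-80713071 and Cd5 at chr19:10717116-10739002.

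When a T cell receptor binds its antigen, calcium and kinase signals switch on a first wave of genes within the same cell. The Nr4a and Egr genes belong to that wave, and Nr4a1, whose product is also called Nur77, is widely used as a reporter of recent receptor signalling. Irf4 is induced in proportion to receptor strength, Myc drives growth and metabolism of activated cells, Nfatc1 encodes a transcription factor released by calcineurin, and CD5 is a surface protein that restrains receptor signalling and is set by receptor strength during thymic development.

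The CD27_KO library held 6789 T cells with 19787327 UMIs, and the WT library 6217 T cells with 15892094 UMIs, at medians of 2200 and 1933 UMIs per T cell. Cd27 itself gave 15 UMIs in CD27_KO and 2077 in WT T cells, and 12 cell barcodes occurred in both libraries. Defining T cell markers were present: Cd3e was seen in 79.9% of CD27_KO and 75.4% of WT T cells, and Cd4 in 30.8% and 25.3%. Ribosomal and mitochondrial genes took 30.5% of UMIs in CD27_KO and 34.7% in WT. The doublet caller marked 0 cells in either library and has not worked here. Joint clustering, with the 10 genes and the lists of early response, dissociation and receptor induced genes left out of the variable genes, gave 15 T cell states. Where markers did not settle a name, a state is called by 2 of its leading genes. Genes outside the lists were not barred from the clustering. Among them is Gadd45b, a leading gene of the Bcl2a1d-Bhlhe40 cluster, whose levels over states had a Pearson r of 0.98 with Nr4a1. The states are thus not fully independent of the 10 genes, and the part of this in their levels was not tested. Several states came mostly from 1 library: the P2rx7-Itga1 cluster had 1801 CD27_KO and 191 WT cells, the Treg-like state 129 and 828, the naive-like state 317 and 1286, and the 2 Th2-like states together 1646 and 371. A state held mostly by 1 library may reflect that library.

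Over all T cells, Egr1 was the 1 gene of the group at least 1.5-fold higher in CD27_KO, and Irf4 the 1 at least 1.5-fold lower, among the 9 with at least 100 UMIs over both libraries. Egr1, an immediate early factor downstream of MAP kinases, had 1271 UMIs or 64.2 CPM (the usual depth-scaled unit, here a gene's UMIs relative to all UMIs of the cells) in CD27_KO, against 583 UMIs or 36.7 CPM in WT, a log2 ratio of 0.81 (0.67 to 0.95). Irf4, a factor needed by effector regulatory and Th2 cells, had 228 UMIs or 11.5 CPM in CD27_KO and 343 UMIs or 21.6 CPM in WT, a log2 ratio of -0.91 (-1.15 to -0.66). For comparison, 7.10% of the 9756 genes with at least 100 UMIs were 1.5-fold higher and 2.87% were 1.5-fold lower, and their median log2 ratio was 0.17. Egr2, which with Egr3 restrains T cell activation, gave only 48 UMIs in CD27_KO and 18 in WT, a log2 ratio of 1.10 (0.29 to 1.97). With the minimum set at 20 UMIs, Egr1 and Egr2 were higher and Irf4 lower of all 10 genes, where the shares of the 12167 genes were 10.7% and 5.93%.

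The other genes were less than 1.5-fold apart. Nr4a1 had 244 CPM in CD27_KO and 282 CPM in WT, a log2 ratio of -0.20 (-0.26 to -0.15). Nr4a2 had 50 and 57.2 CPM, and Nr4a3 102 and 95.1 CPM. These 3 nuclear receptors thus lay within 0.20 log2 units of equality. Egr3 had 14.0 CPM in CD27_KO and 9.88 CPM in WT, a log2 ratio of 0.50 (0.22 to 0.79), and Myc had 35.1 and 40.5 CPM, a log2 ratio of -0.21 (-0.37 to -0.05). Nfatc1 was at 83.6 CPM in CD27_KO and 77.0 CPM in WT, and Cd5 at 201 and 191 CPM. Nfatc1 overlaps AC123818.1, a counted gene on the opposite strand, so its values are less certain. Because the median gene stood at 0.17, Nr4a3, Nfatc1 and Cd5 lay slightly below it, at -0.08, -0.05 and -0.10 relative to it, while Nr4a1 and Nr4a2 lay at -0.38 and -0.37.

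Several ratios moved with the state make-up of the libraries. With each state given the same share in both libraries, Egr1 was at 52.2 CPM in CD27_KO and 48.6 CPM in WT, and its log2 ratio was 0.10 in place of 0.81. The log2 ratio of Irf4 became -0.26, and that of Egr3 -0.08. Neither Egr1 nor Irf4 then passed 1.5-fold. Nr4a3 turned from 0.10 to -0.22, with 90.4 CPM in CD27_KO and 105 CPM in WT, Myc turned from -0.21 to 0.10, and Nr4a1 moved further down to -0.39, with 227 CPM in CD27_KO and 298 CPM in WT. Egr2 stayed at 0.94, on its few UMIs, and Nfatc1 and Cd5 at 0.18 and 0.04.

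**Figure D1:**
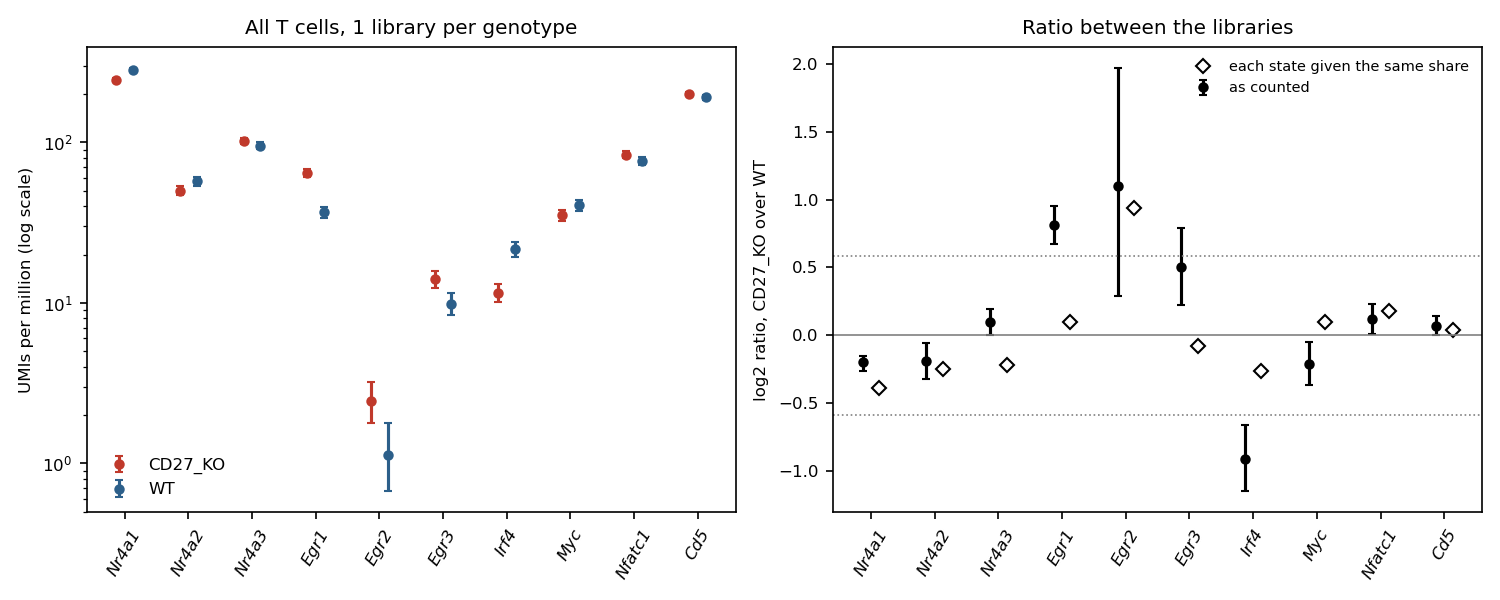
Left, CPM (log scale) of the 10 genes over all T cells, CD27_KO (red) left of WT (blue), with exact 95% Poisson intervals. Right, log2 ratio of CD27_KO over WT with its 95% interval (filled) and with each state given the same share (open diamonds); dotted lines mark 1.5-fold. Egr1 lies at 0.81 as counted and at 0.10 with equal shares, and Irf4 at -0.91 and -0.26.

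The Nr4a genes varied widely between states. Nr4a1 was highest in the Th2-like state led by Calca and Csf2 (531 CPM in CD27_KO, 686 CPM in WT), in the Treg-like state led by Areg and Il10 (515 and 772 CPM) and in the Bcl2a1d-Bhlhe40 cluster (448 and 663 CPM). It was lowest in naive-like cells, at 29.5 CPM in CD27_KO and 50.4 CPM in WT. Among states of at least 100 cells (12 in CD27_KO, 11 in WT), the highest was 18.0-fold above the lowest in CD27_KO and 15.3-fold in WT, and the top 2 states had overlapping intervals in each library. The Treg-like level depended on how the class was drawn: its log2 level over naive-like cells was 4.12 in CD27_KO and 3.94 in WT, and lay between 1.86 and 4.22 in CD27_KO and between 2.37 and 4 in WT under 7 alternatives. With other clusterings or marker gates the class held 317 to 487 CD27_KO cells in place of 129. The second Th2-like state, with Tnfsf11 and Il5 and many UMIs per cell, was at 383 CPM in CD27_KO and 426 CPM in WT, and the Foxp3-Izumo1r cluster, whose leading genes include Foxp3, at 191 and 250 CPM.

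Nr4a3 followed the same states in another order. The Bcl2a1d-Bhlhe40 cluster led with 235 CPM in CD27_KO and 337 CPM in WT, apart from the next state in both libraries, and the Th2-like state with Calca followed at 184 and 231 CPM and the Treg-like state at 162 and 210 CPM. Naive-like cells gave only 2 Nr4a3 UMIs in CD27_KO (2.95 CPM) and 41 in WT (15.9 CPM). Nr4a2 had no single leading state that its intervals resolved. It reached 110 CPM in CD27_KO and 72.5 CPM in WT NK-receptor-like cells, and 86.8 and 98.5 CPM in Treg-like cells, with overlapping intervals in each library, against 7.38 and 5.82 CPM in naive-like cells. Over 23 pools of at least 100 cells (states within a library), the log2 levels of Nr4a1 and Nr4a3 had a Pearson r of 0.94, those of Nr4a1 and Nr4a2 0.63, and those of Nr4a2 and Nr4a3 0.74. These pools share 2 libraries, and the values are descriptions only.

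The RefSeq start regions (GRCm38.p6) of the 3 Nr4a genes are shown because Nr4a1 and Nr4a3 had the highest r of the 45 pairs among the 10 genes and Nr4a2 is the third gene of their family, and that of Cd5 as a gene with a narrow span between states. The table held 6 of the 10 genes. Each window is the 250 bases before the RefSeq start, and bases that GENCODE vM21 places in an exon are left out of the letters. Capitals mark TGACG, the core of the cyclic AMP response element, and GCGNGGGCG, an EGR site, on either strand. The Nr4a1 stretch is chr15:101266596-101266845 (plus strand), that of Nr4a2 chr2:57124004-57124253 (minus), that of Nr4a3 chr4:48045055-48045152 (plus) and that of Cd5 chr19:10739003-10739224 (minus). The Nr4a1 stretch lies inside the gene's longer GENCODE span, outside its exons.
Nr4a1: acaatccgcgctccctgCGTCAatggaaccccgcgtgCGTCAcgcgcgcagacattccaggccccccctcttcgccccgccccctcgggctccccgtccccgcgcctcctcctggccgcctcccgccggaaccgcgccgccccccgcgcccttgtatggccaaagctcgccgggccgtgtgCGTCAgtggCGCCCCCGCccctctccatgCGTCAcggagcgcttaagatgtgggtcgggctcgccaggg
Nr4a2: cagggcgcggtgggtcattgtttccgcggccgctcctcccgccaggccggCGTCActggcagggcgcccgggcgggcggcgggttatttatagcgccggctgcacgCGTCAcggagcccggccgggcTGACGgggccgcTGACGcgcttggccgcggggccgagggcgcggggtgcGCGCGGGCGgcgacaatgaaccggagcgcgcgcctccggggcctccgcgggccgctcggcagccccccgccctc
Nr4a3: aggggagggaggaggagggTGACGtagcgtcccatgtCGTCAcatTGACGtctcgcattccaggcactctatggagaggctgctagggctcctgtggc
Cd5: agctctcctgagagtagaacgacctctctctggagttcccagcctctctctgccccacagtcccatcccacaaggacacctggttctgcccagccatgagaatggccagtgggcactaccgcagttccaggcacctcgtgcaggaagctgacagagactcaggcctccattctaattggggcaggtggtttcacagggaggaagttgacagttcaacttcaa

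TGACG was found 4 times in the window of each Nr4a gene, 3 of them in the shorter stretch printed for Nr4a3, and 0 times in those of Cd5, Egr2 and Irf4. Of 32536 distinct windows of the same length, 17.9% held it. The EGR letters were found once in Nr4a1 and once in Nr4a2, against 4.74% of all windows. The AP-1 letters TGANTCA (6.73% of windows), the NR4A monomer letters AAAGGTCA (1.35%) and the serum response element, searched as the CArG box (1.48%), had 0 matches in the 6 genes. GGAAA, the NFAT core, occurred once, in Nr4a2 (55.7% of windows), and GGGCGG, an SP1 site, in 5 of the 6 genes but not in Cd5 (33.0%). No binding was measured, so a match is a description of letters only.

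Among the Egr genes, Egr1 was highest in the Th2-like state with Calca, at 128 CPM in CD27_KO and 100 CPM in WT. In WT this lead was not resolved, since all 10 pairs of neighbouring states of at least 100 cells overlapped in their intervals. Among these, the next WT state was the P2rx7-Itga1 cluster, at 74.4 CPM (48.1 to 110). The Th2-like state with many UMIs, with only 75 WT cells, was higher in WT, at 93.0 CPM (66.7 to 126). Egr1 was at 94.4 CPM in CD27_KO and 49.2 CPM in WT cells of the Bcl2a1d-Bhlhe40 cluster, at 38.8 and 51.3 CPM in Treg-like cells, and at 10.3 and 16.3 CPM in naive-like cells. In CD27_KO the Treg-like state was second for Nr4a1 and eighth of 12 states for Egr1, on 21 UMIs and with an interval (24.0 to 59.3 CPM) that overlapped those of the states ranked just above it. In WT it was first for Nr4a1 and the third for Egr1 of the 11 states of at least 100 cells. Egr3 was also high in the Th2-like cells, at 26.8 CPM in CD27_KO and 27.2 CPM in WT in the state with many UMIs, and at 18.3 and 34.4 CPM in the state with Calca. Egr2 took its highest level in the Foxp3-Izumo1r cluster, on 9 UMIs in CD27_KO (16.2 CPM) and 3 in WT (4.16 CPM). All neighbouring states of Egr2 overlapped in their intervals.

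Irf4 was highest in Treg-like cells, which express suppressive mediators such as Il10. Treg-like cells held 64.6 CPM in CD27_KO and 65.3 CPM in WT, and the Foxp3-Izumo1r cluster 25.2 and 34.7 CPM. In naive-like cells it gave 0 UMIs in CD27_KO and 4 in WT. The Treg-like level stood apart from the next state in both libraries. Myc was also highest in Treg-like cells, at 109 CPM in CD27_KO and 70.2 CPM in WT, followed by NK-receptor-like cells at 68.3 and 67.3 CPM, with overlapping intervals. Among the states of at least 100 cells, the highest for Myc was 6.73-fold above the lowest in CD27_KO and 2.75-fold in WT.

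Nfatc1 and Cd5 had narrow spans between the states of at least 100 cells, as did Myc in WT. Smaller states, such as the Th17-like one in CD27_KO, are not part of these spans. Nfatc1 spanned 2.63-fold in CD27_KO and 3.68-fold in WT, with its lower levels in the Th2-like state with Calca (41.8 CPM in CD27_KO, 43.6 CPM in WT) and in naive-like cells (44.3 and 29.1 CPM). That Th2-like state, first for Nr4a1 and Egr1 in CD27_KO, was there the lowest of 12 for Nfatc1, with an interval that overlapped that of naive-like cells. Cd5 spanned 3.28-fold in CD27_KO and 2.58-fold in WT. It was at 252 and 244 CPM in the Foxp3-Izumo1r cluster and at 76.8 and 98.5 CPM in naive-like cells.

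**Figure D2:**
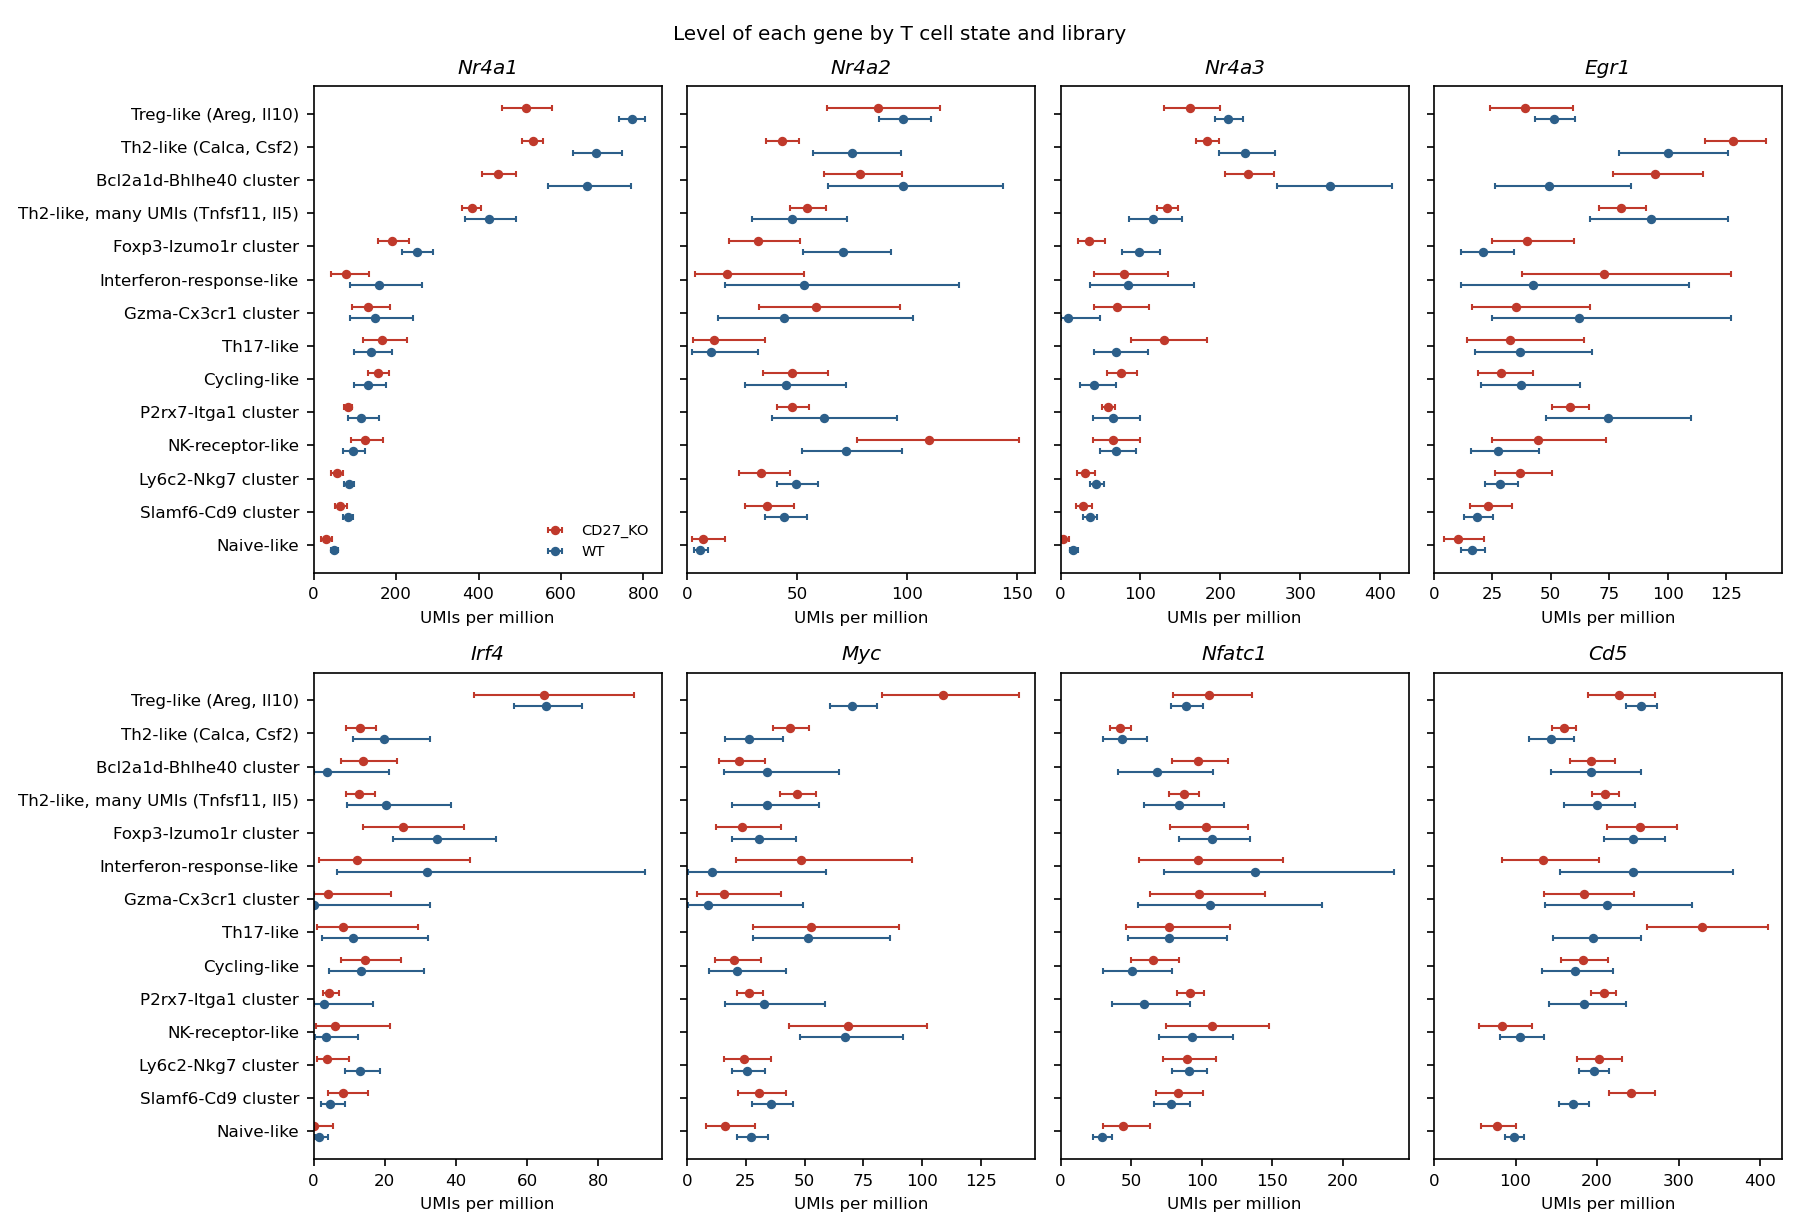
CPM of 8 genes (panels) in 14 of the 15 T cell states (rows, ordered by Nr4a1 in WT), CD27_KO (red) above WT (blue), points with exact 95% Poisson intervals. Nr4a1 lies at 515 and 772 CPM in Treg-like cells and at 29.5 and 50.4 in naive-like cells, while Cd5 stays within 3.28-fold among the states of at least 100 cells in CD27_KO.

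Genes known to be induced by tissue handling were also highest in these states. A list of 14 dissociation and heat shock genes, such as Jun and Atf3, summed to 7270 CPM in CD27_KO and 7290 CPM in WT in the Th2-like state with Calca, to 6780 and 6410 CPM in Treg-like cells and to 2990 and 3000 CPM in naive-like cells. Over all T cells it summed to 4960 CPM in CD27_KO and 4550 CPM in WT. Of the 14 genes, 1 was 1.5-fold higher and 2 lower, where 10.7% and 5.93% of all genes with at least 20 UMIs were. The part of this list in the levels of the Nr4a and Egr genes was not tested.

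Within states, Nr4a1 was lower in CD27_KO in 12 of the 15 states, with the interval below 0 in 7 and above 0 in 0. The log2 ratio was -0.58 (-0.77 to -0.40) in Treg-like cells (between -1.23 and -0.59 under 7 alternatives), -0.37 (-0.51 to -0.22) in the Th2-like state with Calca and -0.56 (-0.82 to -0.30) in the Bcl2a1d-Bhlhe40 cluster. The 3 states with a higher CD27_KO value were the NK-receptor-like (0.39), Th17-like (0.25) and cycling-like (0.23) ones, each with an interval that included 0. The same direction prevailed for Nr4a3, which was lower in 11 of the 14 states with at least 20 UMIs, with 5 intervals below 0 and 2 above. Among them, the Foxp3-Izumo1r cluster had 36.0 CPM in CD27_KO and 98.5 CPM in WT, a log2 ratio of -1.45 (-2.25 to -0.72). The summed dissociation list was lower in CD27_KO in 10 of the 15 states and higher in 5. Some of these gaps were small, such as 2990 CPM in CD27_KO and 3000 CPM in WT in naive-like cells. The list was at 6450 CPM in CD27_KO and 6800 CPM in WT in the Bcl2a1d-Bhlhe40 cluster and at 3960 and 4280 CPM in the Foxp3-Izumo1r cluster, and higher in Treg-like cells, at 6780 and 6410 CPM. Its part in these ratios was not tested.

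Egr1 had no common direction, with 5 states lower and 7 higher in CD27_KO of 12, and 1 interval clear of 0, in the Bcl2a1d-Bhlhe40 cluster (0.94, 0.10 to 1.90). Its 1.75-fold excess over all T cells was thus not seen within the Th2-like states together, where it had 104 CPM in CD27_KO and 97.7 CPM in WT, a log2 ratio of 0.09 (-0.19 to 0.39). Irf4 was lower in CD27_KO in 6 of 6 states with at least 20 UMIs, by 0.02 to 1.75 log2 units, with 2 intervals below 0. In Treg-like cells, where Irf4 was highest, the log2 ratio was -0.02 (-0.58 to 0.51).

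Myc was lower in CD27_KO in 8 and higher in 5 of the 13 states with at least 20 UMIs. Its CPM was higher in CD27_KO in Treg-like cells, at a log2 ratio of 0.63 (0.19 to 1.06), and in the Th2-like state with Calca, where 43.7 CPM in CD27_KO stood against 26.4 CPM in WT and the log2 ratio was 0.73 (0.04 to 1.48). The Treg-like value turned round, to between -0.36 and -0.13, under 4 other ways of drawing that class. Cd5 was higher in CD27_KO in the Slamf6-Cd9 cluster, with 241 CPM in CD27_KO and 171 CPM in WT (log2 ratio 0.50, 0.27 to 0.73), and in the Th17-like state, with 329 and 195 CPM (0.76, 0.24 to 1.28). In 13 other states its interval included 0. For Nfatc1 no interval was clear of 0.

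**Figure D3:**
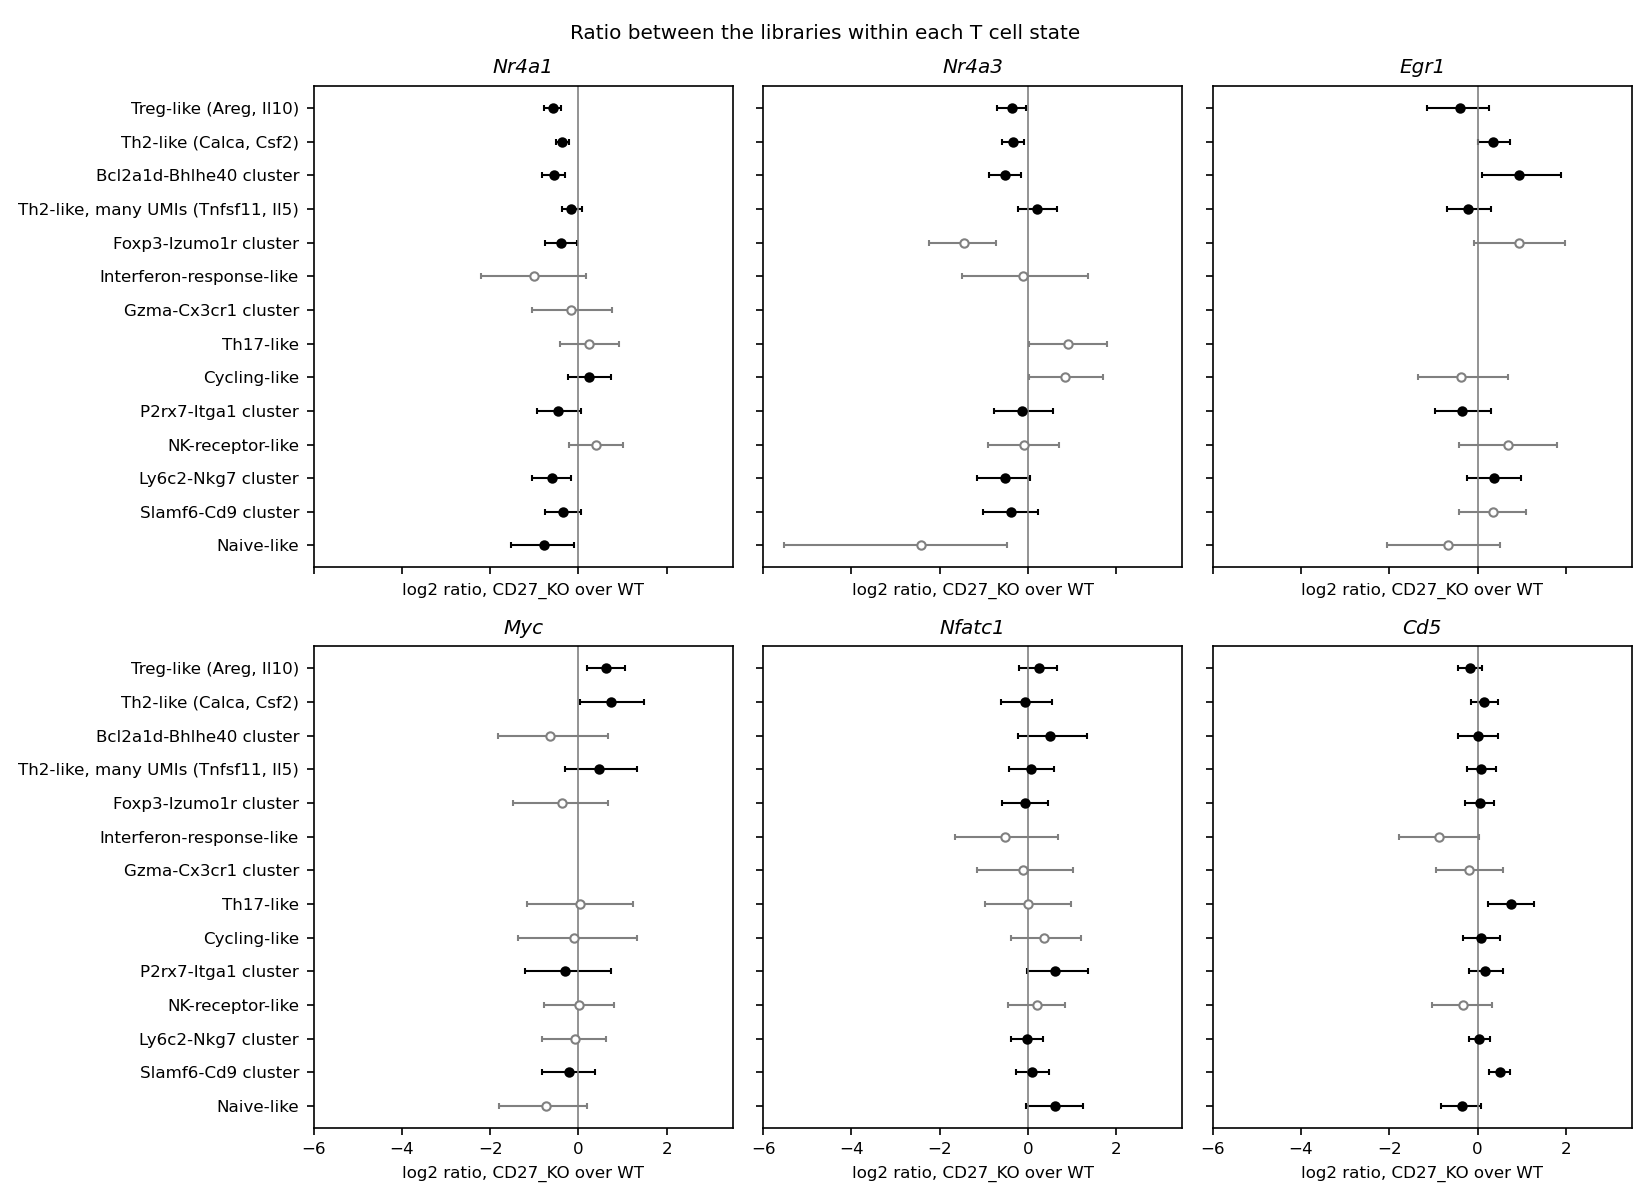
Log2 ratio of CD27_KO over WT (x axis) in 14 of the 15 T cell states (rows) for 6 genes, with exact 95% intervals; filled points have at least 100 UMIs over both libraries and open points 20 to 99, and states with fewer are not drawn. Nr4a1 lies left of 0 in 11 of the 14 states drawn, while Myc lies at 0.73 in the Th2-like state with Calca.

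Set against all genes of the same state, few genes of the group passed 1.5-fold in 5 classes with at least 200 cells in each library. In the Th2-like states together, of 9 genes measured, Myc was higher, at 45.3 CPM in CD27_KO and 29.2 CPM in WT, and Irf4 lower, at 12.8 and 20 CPM, where 7.50% of all genes were higher and 2.03% lower. In naive-like cells, Nfatc1 was higher and Nr4a1 lower of 3 measured, against 9.29% and 2.58%. In the Ly6c2-Nkg7 cluster, 0 of 6 were higher and Nr4a1 was lower, at 56.0 CPM in CD27_KO and 85.0 CPM in WT, against 2.52% and 2.15%. Neither the Slamf6-Cd9 cluster (6 measured, against 5.66% and 1.35%) nor the Foxp3-Izumo1r cluster (3 measured, against 7.79% and 4.38%) had a gene of the group past 1.5-fold in either direction. Treg-like cells numbered 129 in CD27_KO, too few for this count. The intervals of Irf4 in Th2-like cells and of Nfatc1 in naive-like cells included 0, and each call in these 2 classes was lost under at least 1 other way of drawing them.

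At equal depth, with each cell thinned to 1300 UMIs, cells with UMIs of at least 2 of the 6 Nr4a and Egr genes made up 7.25% (6.64 to 7.89) of 6735 CD27_KO and 7.04% (6.39 to 7.74) of 5681 WT T cells. Thinning left out 54 CD27_KO and 536 WT cells, and without it the shares were 18.2% and 15.6%. At least 1 of the 6 genes was seen in 32.8% (31.6 to 33.9) of CD27_KO and 29.9% (28.8 to 31.2) of WT cells. The order of the libraries turned under a stricter cell filter, with 38.2% in CD27_KO and 40.0% in WT for at least 1 gene and 8.75% and 10.2% for at least 2, and for at least 2 also at 2000 UMIs per cell, with 13.8% and 14.2%. The states differed widely. At least 2 genes were seen in 14.8% (9.18 to 22.2) of CD27_KO and 20.7% (17.9 to 23.8) of WT Treg-like cells, in 19.9% (16.3 to 23.8) and 22.6% (15.9 to 30.6) of the Bcl2a1d-Bhlhe40 cluster, and in 0.633% (0.0767 to 2.27) and 1.23% (0.690 to 2.02) of naive-like cells. In each of these 3 states the 2 libraries overlapped.

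Naive-like cells serve as the background for single genes, at medians of 2074 UMIs in CD27_KO and 1863.5 in WT. Nr4a1 was seen in 41.4% (32.8 to 50.4) of CD27_KO and 53.6% (49.9 to 57.2) of WT thinned Treg-like cells, against 4.11% and 5.66% of naive-like cells. Irf4 was seen in 11.7% and 9.56% of Treg-like cells, against 0 of 316 naive-like cells in CD27_KO, where 3 counts, the limit used for a count of 0, would be a share of cells with a UMI of 0.949%, and 0.246% in WT. Egr2 was seen in 0.238% of CD27_KO and 0.158% of WT T cells and in 0.316% and 0.246% of naive-like cells. Its detection over all T cells was thus not above that in naive-like cells. The naive-like shares rest on 1 CD27_KO and 3 WT cells, too few to set a background for Egr2. In the Foxp3-Izumo1r cluster the shares were 1.29% and 0.962%, on 3 cells in each library. The cells with at least 2 genes lay in different states by library: of 488 such CD27_KO cells, 36.1% were in the Th2-like state with Calca and 3.89% in the Treg-like state, and of 400 WT cells, 12.5% and 38.5%. These states also differed in size, and held 17.3% and 1.90% of all thinned CD27_KO T cells and 5.03% and 13.1% of WT ones.

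**Figure D4:**
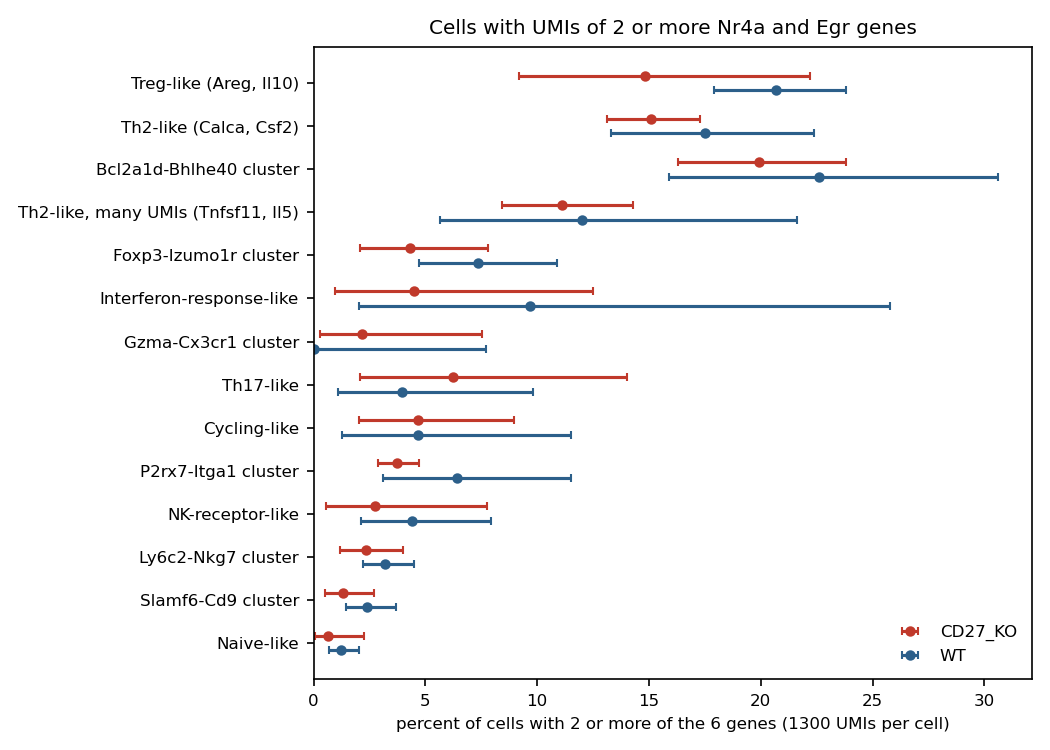
Percent of cells, thinned to 1300 UMIs, with UMIs of at least 2 of Nr4a1, Nr4a2, Nr4a3, Egr1, Egr2 and Egr3 (x axis) in 14 of the 15 T cell states (rows), CD27_KO (red) above WT (blue), with exact Clopper-Pearson 95% intervals. The Bcl2a1d-Bhlhe40 cluster reaches 19.9% in CD27_KO and 22.6% in WT, and naive-like cells 0.633% and 1.23%.

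Taking all T cells together, some Nr4a and Egr genes were seen in the same cells more often than in other cells. Nr4a3 was seen in 18.7% (16.6 to 21.0) of CD27_KO cells with Nr4a1 and in 7.93% (7.23 to 8.68) of those without, and in WT in 19.2% (16.8 to 21.7) and 6.31% (5.63 to 7.05). Egr1 was seen in 8.70% of CD27_KO cells with Nr4a1 and in 5.09% of those without, and in WT in 6.83% and 3.29%. Within Th2-like cells the Egr1 shares with and without Nr4a1 were 10.8% and 7.86% in CD27_KO and 9.42% and 10.3% in WT, and within Treg-like cells 1.89% and 2.67% in CD27_KO and 6.53% and 3.77% in WT, with intervals that overlapped in all of these. Of the 15 pairs among the 6 genes, 6 had intervals apart in both libraries over all T cells, and of all 45 pairs among the 10 genes, 7 did. The additional pair was Nr4a3 and Irf4, with Irf4 in 2.83% of CD27_KO cells with Nr4a3 and 1.11% of those without, and in 6.48% and 1.81% in WT. Within Th2-like cells and within Treg-like cells, the intervals of this pair overlapped in both libraries. In Th2-like cells only Nr4a1 and Nr4a3 had intervals apart, and only in CD27_KO. In Treg-like cells only Nr4a2 and Nr4a3 did, and only in WT. Fewer pairs thus had intervals apart within these states. The states hold fewer cells and so have wider intervals, and overlap there cannot show that an association was absent. Within Th2-like cells, Nr4a3 was seen in 21.3% of CD27_KO cells with Nr4a1 and in 13.6% of those without, with intervals apart, and in 23.9% and 15.2% in WT, with intervals that overlapped. Within Treg-like cells the shares were 17% and 20% in CD27_KO and 24.4% and 16.5% in WT, and overlapped in both.

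Cells with at least 2 of the 6 genes were then set against cells with none, of which there were 4528 in CD27_KO and 3980 in WT. Of 9084 genes, 177 (1.95%) were at least 2-fold higher in both libraries and 85 (0.936%) at least 2-fold lower. Atf3, a stress-induced transcription factor, was 9.96-fold higher in CD27_KO and 10.5-fold higher in WT. Csf2, the gene of the cytokine GM-CSF, was 9.13-fold and 14.7-fold higher, and Ccl1, a chemokine gene, 20.2-fold and 6.81-fold higher. The chemokine gene Cxcl2, the neuropeptide gene Calca and Areg, which encodes the tissue repair factor amphiregulin, were 6.72-fold, 6.16-fold and 5.26-fold higher in CD27_KO, and 9.06-fold, 7.82-fold and 7.88-fold higher in WT. Gadd45b, Zfp36, Klf4, Il13, Ndrg1, Enah, Slc15a3, Ctsh and Gm43305 complete the 15 furthest. Some of these rest on few UMIs. Enah had 3 UMIs in WT cells with at least 2 genes, and the interval of its log2 ratio there (-0.11 to 4.94) included 0. In CD27_KO cells with at least 2 genes, Gm43305 had 5 UMIs, Slc15a3 6 and Ctsh 7. Ccr7, a chemokine receptor gene of naive cells, was lower, at 4.73 CPM in CD27_KO cells with at least 2 genes and 39.9 CPM in those with none, and at 30.8 and 118 CPM in WT. Igfbp4, also high in naive-like cells, was lower as well, as was Rflnb. Ttc27, Thg1l, Wdr4 and Them4 were also among the 8 lowest, each on 1 UMI per library in cells with at least 2 genes.

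Of the early receptor response list, 14 of 22 measured genes were 2-fold higher in both libraries, among them Nfkbid, Nfkbiz, Fosb, Fos, Rel, Tnfrsf9 and Dusp1, where 1.95% of all genes were. Its median log2 ratio was 1.14 in CD27_KO and 1.37 in WT, against -0.04 and 0.10 over all genes. The counts were lower once states were matched. With the cells without the genes weighted to the same states, 24 genes were 2-fold higher in both libraries in place of 177, 14 of them shared, and 0 of the 22 early response genes were. Their ratios still lay above 1 for 22 of 22 genes in CD27_KO and 21 of 22 in WT, with medians of 0.58 and 0.55 on the log2 scale. Atf3 kept log2 ratios of 1.81 in CD27_KO and 1.31 in WT, and Csf2 1.77 and 1.87. Ccl1 (4.27 and 1.54) and Calca (1.11 and 1.09) also stayed past 2-fold in both libraries. Cxcl2 (1.31 and 0.80) and Areg (1.07 and 0.81) fell below 2-fold in WT. Gadd45b (0.79 and 0.84) and Zfp36 (0.96 and 0.42) fell below it in both libraries. Ccr7 stood at -0.79 and -0.37. Ctsh in WT and Igfbp4 in CD27_KO changed sign, to -0.14 and 0.34.

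Of the 4 other genes of the group, Irf4 was higher in cells with at least 2 of the 6, by a log2 ratio of 1.66 in CD27_KO and 2.56 in WT, and by 1.29 and 0.96 with the states weighted alike. Myc had 0.72 and 0.58, and Nfatc1 0.10 and 0.72. Cd5 had -0.14 in CD27_KO and 0.06 in WT, with 172 CPM in CD27_KO cells with at least 2 genes and 189 CPM in those with none. Of the 14 dissociation genes, Atf3, Btg2 and Nfkbia were 2-fold higher in both libraries, where 1.95% of all genes were. With the states weighted alike, only Atf3 was. The part of these genes in the result was not tested.

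**Figure D5:**
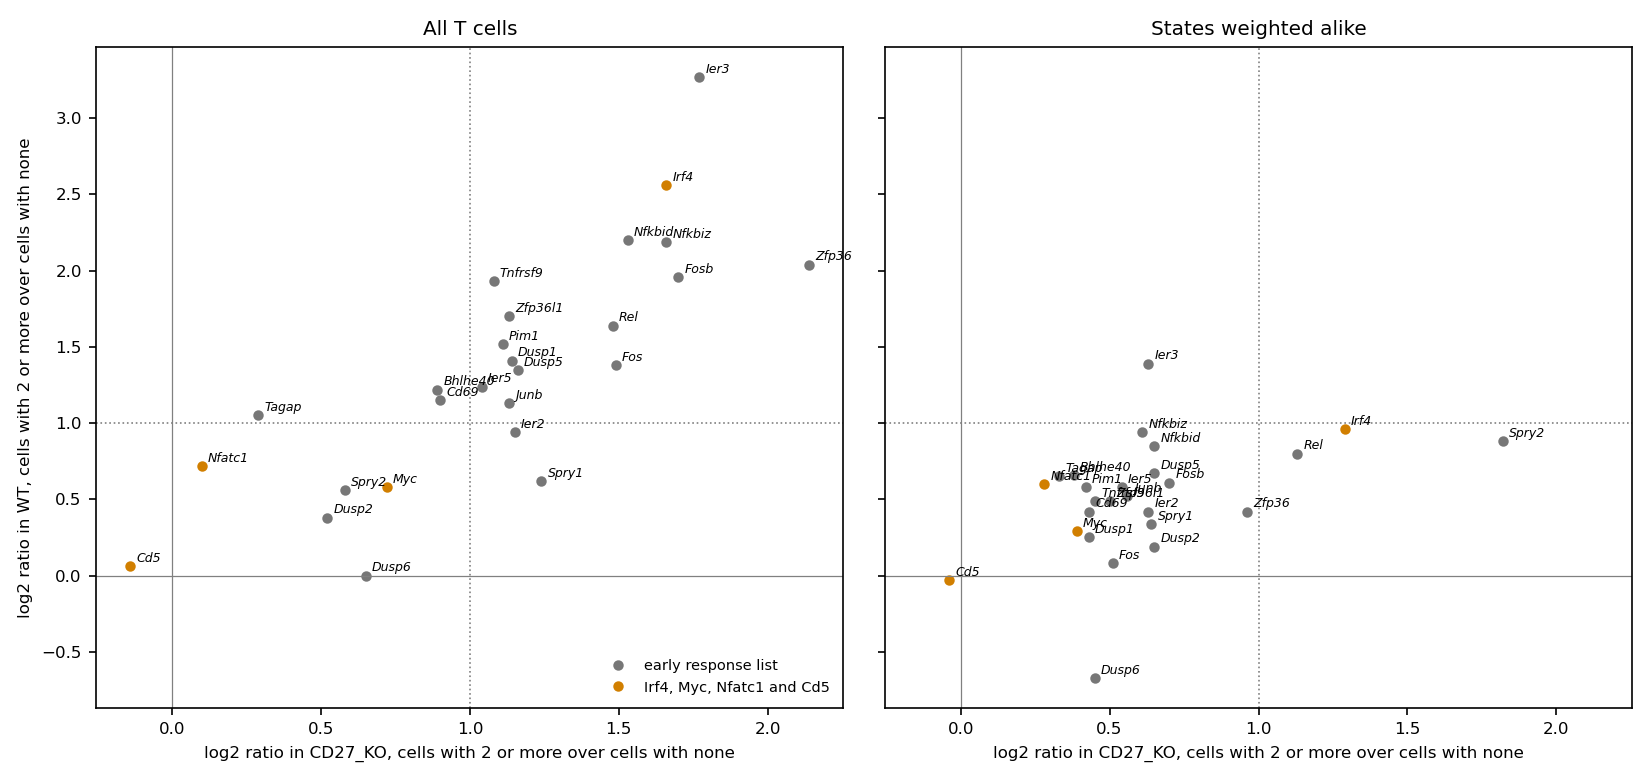
Log2 ratio of cells with at least 2 of the 6 Nr4a and Egr genes over cells with none, in CD27_KO (x axis) and WT (y axis), for 22 early response genes (grey) and Irf4, Myc, Nfatc1 and Cd5 (orange); dotted lines mark 2-fold. In all T cells (left) 14 grey points pass both lines, and with states weighted alike (right) 0 do, while Irf4 lies at 1.29 and 0.96.

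By likeness of pattern over the 23 pools, measured as Pearson r of log2(CPM + 10) among 8620 genes, the 3 genes nearest to Nr4a1 were Gadd45b (0.98), Csrnp1 and Zfp36 (0.97 each). Those nearest to Nr4a3 were Ier5 (0.95), Junb and Nfkbid (0.94 each), and those nearest to Nr4a2 were Cers4 (0.86), H2-Q6 and Dennd4a (0.85 each). Egr1 was nearest to Nabp1 (0.90), Ern1 and Mvb12b (0.88 each), and Egr3 to Wac (0.85), Csf1 (0.84) and Arl5b (0.83). The neighbours of Irf4 were Pcyt1a (0.90), Il10 and Itgav (0.89 each), and those of Myc were S100a1 (0.80), Cluh (0.73) and Lyn (0.72). Nfatc1 lay nearest to Pglyrp1 (0.88), Akna and Hopx (0.86 each), and Cd5 to the receptor gene Trac (0.88), H2-M3 (0.86) and Cd6 (0.84), whose product is a surface protein related to CD5.

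Related pathway genes were compared over all T cells as lists, with at least 20 UMIs per gene and the same background of 10.7% higher and 5.93% lower and a median log2 ratio of 0.17 over all genes. Of the 26 genes past 1.5-fold among the 3 furthest in either direction of each list, 9 were still past it in the same direction with equal state shares, and 2 changed sign. Of 24 early receptor response genes, 3 were 1.5-fold higher in CD27_KO (Dusp6, Bhlhe40 and Dusp5) and 4 lower, with a median of 0.12. Dusp6, a phosphatase that limits ERK signalling, had 65.3 CPM in CD27_KO and 32.0 CPM in WT, a log2 ratio of 1.03 that became 0.20 with equal state shares. Tnfrsf9, the costimulatory receptor 4-1BB, had 8.89 and 29.5 CPM, a log2 ratio of -1.73 (-1.99 to -1.48), which became -0.39 with equal state shares. Dusp4 and Ier3 were also lower as counted, at -0.76 and -1.11, and stood at 0.09 and -0.76 with equal state shares. Of 16 measured NFAT and calcineurin genes, 1 was higher, the calcineurin subunit gene Ppp3ca (132 CPM in CD27_KO and 85.8 CPM in WT), and 1 lower, with a median of 0.28.

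Of a list of 15 inhibitory surface and signalling genes set beside Cd5, 1 was higher and 3 lower in CD27_KO. Ubash3a was at 106 CPM in CD27_KO and 66.3 CPM in WT. Pdcd1, the gene of PD-1, was at 13.5 and 27.5 CPM, Cd200 at 16.7 and 33.9 CPM, and Ctla4 at 222 and 400 CPM, a log2 ratio of -0.85 that became 0.14 with equal state shares. The list's median was -0.16 as counted and 0.06 with equal shares. Of 8 genes linked to NR4A factors in exhaustion and tolerance, 1 was higher, Ikzf3, and 4 lower, with a median log2 ratio of -0.76 that became 0.05 with equal state shares. Tox, a factor of exhausted and regulatory cells, had 39.0 CPM in CD27_KO and 114 CPM in WT, and a log2 ratio of -1.55 as counted and -0.95 with equal shares. Tox2 and Gpr83 were also among the lower ones, at -2.00 and -1.96 as counted and -0.20 and -0.64 with equal shares.

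Of 11 NAB and EGR or NFAT linked genes, 1 was higher, the anergy ubiquitin ligase gene Rnf128, at 56.1 CPM in CD27_KO and 17.6 CPM in WT, and 0 lower, with a median of 0.10. The log2 ratio of Rnf128, 1.68 as counted, became 0.49 with equal state shares. Of 7 measured Irf4 partner or target genes, Irf8, Prdm1 and Ikzf1 were higher and 0 lower as counted, with a median of 0.46. With equal state shares the median was 0.33. Irf8 then stood at 1.41, while Prdm1 (0.36) and Ikzf1 (0.33) no longer passed 1.5-fold. Batf, a partner of Irf4, had 45.7 CPM in CD27_KO and 54.6 CPM in WT. Of 8 measured Myc partners and antagonists, 1 was higher and 0 lower, with a median of 0.28, and of 17 Myc target and ribosome biogenesis genes, 0 passed 1.5-fold in either direction, with a median of -0.06. Of 10 receptor induced cytokines and chemokines, 4 were higher and 2 lower, with a median of 0.00. Il4, a Th2 cytokine gene, had 55.0 CPM in CD27_KO and 11 CPM in WT, a log2 ratio of 2.32 as counted and 0.98 with equal shares. Ccl4 and Ifng were also higher as counted, at 0.76 and 0.75, and stood at 0.91 and 0.39 with equal shares. Csf2 was at -0.16 as counted and at -1.36 with equal shares. Il10 had 4.45 and 26.2 CPM, a log2 ratio of -2.56 as counted and -0.65 with equal shares.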

How the data were processed

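The deposited matrices hold UMI counts per gene and called cell, made by the authors with Cell Ranger 6.1.1, per the file headers, and mm10, per the submitters' processing notes. Groups follow the library titles. The labels and the design text name different versions of the 3′ kit, and do not say whether 10 mice went into each pool. All later steps used Python 3.11.15, scanpy 1.11.5, numpy 2.4.6, scipy 1.17.1 and igraph 0.11.9. BLAST 2.17.0 found no other gene matching the last 400 bases of any of the 10 genes' transcripts over 90 bases at 90% identity.

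Kept cells had 500 genes or more and 10% mitochondrial UMIs or less. Both libraries were clustered jointly (2000 variable genes, 30 components, 20 neighbours, Leiden resolution 1). States were named from marker lists, and clusters of dendritic and stromal cells, 64 in CD27_KO and 121 in WT, were left out. CPM came from UMIs summed over cells. No test was run, since each group is 1 library. Intervals are exact Poisson for levels, binomial for ratios and Clopper-Pearson for shares. A side at 0 was set to 3 counts in ratios between cells with and without the genes.

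The 10 genes and the 10 gene lists were chosen with earlier results of these data known. Genes named are the 10, the 3 furthest of each list in either direction with at least 100 UMIs, the 15 highest and 8 lowest in cells with at least 2 of the 6 genes, and the 3 nearest in pattern. Alternatives were scaling, cell filters, doublet scores, clustering, marker gates, equal state shares, thinning depth and thresholds. The steps were tested on simulated data. 1 T cell state and 1 gene are not reported here by name, and their values stand only within the totals and counts.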

Additional observations from a re-analysis of the deposited data

Results flagged for a closer look

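Among 40 stromal cells left out of the T cell results, Egr1 stood at 1690 CPM in CD27_KO (11 cells) and 1780 in WT (29 cells), above its level in each T cell state. In T cells the 6 stromal markers summed to 6.12 CPM in CD27_KO and 8.81 in WT, with 4 and 2 of them at 0. Their part in the Egr1 values was not tested.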

How the results depend on the processing

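No paired analysis was possible because each genotype is 1 library, and for the same reason no replicate could be left out. Over all T cells, 1 gene (Egr1) was 1.5-fold higher in CD27_KO: with non-T clusters kept in, with equal state shares or at 2-fold the count was 0, and with a minimum of 20 UMIs it was 2. The 1 lower gene (Irf4) became 0 with equal state shares and at 2-fold. In Th2-like cells, the 1 higher gene became 0 at resolution 0.5, at resolution 2, with the 10 genes and early genes among the variable genes, with marker gates and without the top 5% of doublet scores. There the 1 lower gene became 0 at resolution 0.5, with seed 1, with early genes and without doublet scores, and 2 at resolution 2. In naive-like cells, the 1 higher gene became 0 at resolution 2, with early genes, with marker gates and without ribosomal and mitochondrial UMIs, and the 1 lower gene became 0 at resolution 2 and with marker gates. The Treg-like Myc ratio of 0.63 reversed to -0.13 at resolution 0.5, -0.25 at resolution 2, -0.36 with early genes and -0.24 with marker gates, where the Treg-like class held 436, 487, 412 and 317 CD27_KO cells in place of 129. Cells with at least 1 of the 6 genes made up 27.5% of CD27_KO and 25.8% of WT at 1000 UMIs, 45.2% and 43.4% at 2000 UMIs, 46.8% and 40.9% without thinning, and 38.2% and 40.0% under the strict filter, where the order of the libraries turned round. Cells with at least 2 made up 5.36% and 5.18%, 13.8% and 14.2%, 18.2% and 15.6%, and 8.75% and 10.2% in the same order. The 177 genes higher in cells with at least 2 genes became 321 with at least 3 (71 CD27_KO and 53 WT cells) and 24 with states weighted alike. The causes were not tested. Of the values for single genes and lists, 365 stayed within their counting interval (for list medians, within 0.1 log2 units) and 93 did not, nor did the 4 reversed Treg-like Myc ratios. Of the counts over genes and the shares of cells, 49 stayed within 1.5 times or within their interval and 40 did not. The Treg-like ratios of Nr4a2 (-0.18) and Nr4a3 (-0.37) lay between -0.97 and -0.19 and between -0.84 and -0.20. The Nr4a1 ratio over all T cells stayed between -0.39 and -0.20 over 10 alternatives. Depth limits Egr2, with 48 UMIs in CD27_KO and 18 in WT.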
